A study of Mus musculus with 6 samples.

Results

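The protein arginine methyltransferase genes were examined in mouse brain: Prmt1, Prmt2, Prmt3, Carm1, Prmt5, Prmt6, Prmt7, Prmt8 and Prmt9. They were chosen by gene symbol, with Prmt9 taken from the row that carries its older symbol, Prmt10, and they are 9 of the 31276 symbols in the deposited count table. The rule that picked the rows used no measured value, though earlier results of these data were known when the genes were chosen. All 9 passed the filter on low counts. Polyadenylated RNA from brains of C57BL/6 mice at postnatal day 14 was sequenced in 150 bp read pairs, from 3 wild types (WT) and from 3 PRMT5 knockouts made with olig2cre (KO). By its name, this Cre recombinase follows Olig2, which encodes a transcription factor of oligodendrocytes, their precursors and some neuronal progenitors, so cells that never expressed Olig2 keep an intact Prmt5. The labels name neither the deleted exons of Prmt5 nor the alleles of the WT mice, and whether each sample was a separate animal is not stated. The p-values therefore measure only how far these samples spread, which may in part be technical.

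Protein arginine methyltransferases move methyl groups from S-adenosylmethionine to the guanidino nitrogens of arginine side chains. Type I enzymes (Prmt1, Prmt2, Prmt3, Carm1, Prmt6 and Prmt8) put both methyl groups of a dimethylarginine on the same nitrogen, type II enzymes (Prmt5 and Prmt9) place them symmetrically on different nitrogens, and Prmt7, a type III enzyme, stops at monomethylarginine. Their substrates include histones, spliceosomal Sm proteins, RNA-binding proteins and, in myelin, myelin basic protein. PRMT5 works in a complex with the WD-repeat protein encoded by Wdr77, and in brain it is known for its part in the growth and maturation of oligodendrocytes.

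The members share a catalytic loop with a pair of glutamates that bind the target arginine, named the double-E loop. Its coding sequence is printed for each gene because it shows how far apart these genes are at the base level in a conserved stretch, which bears on whether reads can be told apart. Each line holds 36 bases, 5′ to 3′, from the GENCODE M21 transcripts on mm10, and capitals mark the codons of the glutamate pair.
Prmt1: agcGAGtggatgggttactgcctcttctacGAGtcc
Prmt8: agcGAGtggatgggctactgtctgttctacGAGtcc
Prmt6: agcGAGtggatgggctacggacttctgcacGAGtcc
Prmt3: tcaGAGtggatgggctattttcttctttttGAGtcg
Prmt2: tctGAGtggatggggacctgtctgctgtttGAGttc
Carm1: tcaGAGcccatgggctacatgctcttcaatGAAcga
Prmt5: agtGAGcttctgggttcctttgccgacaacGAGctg
Prmt7: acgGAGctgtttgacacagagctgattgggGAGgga
Prmt9: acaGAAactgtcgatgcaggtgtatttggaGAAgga

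Prmt8 differed from Prmt1 at 3 of these 36 bases and Prmt6 at 7. The other type I genes differed from Prmt1 at 13 (Prmt2 and Prmt3) or 16 bases (Carm1), Prmt5 at 16, Prmt7 at 23 and Prmt9 at 24. In Prmt1 the loop lies in exon 6 of 11 of the transcript used (chr7:44979422-44979457, minus strand), in Prmt8 in exon 5 of 10 (chr6:127711821-127711856, minus strand) and in Prmt5 in exon 12 of 17 (chr14:54510919-54510954, minus strand). In Prmt2 and Prmt3 it is split by an intron. The closest pair, Prmt1 and Prmt8, had 74.1% identical bases over 357 aligned codons, and the longest run of identical coding bases that they share, 38 bases, ends inside the loop, whose first bases are in capitals here.
Prmt1 and Prmt8: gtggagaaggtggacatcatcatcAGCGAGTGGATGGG
No other pair of members shared a coding run above 20 bases, and no member held a word of 50 bases found in another member. An untrimmed read of 150 bases therefore holds bases that tell the members apart wherever it lies in their exons.

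Other genes overlap some members, and the strand setting of the counting is not given in the sources used here. For Prmt5 none of the 50-base words of its transcripts was found in another gene. For Carm1 17.4% were, all in Yipf2 on the opposite strand, and for Prmt6 22.5%, all in the antisense gene C130013H08Rik. Counts of Carm1 and Prmt6 may therefore include reads of those neighbours. For the remaining members the share ran from 0.982% in Prmt2 to 6.95% in Prmt8, the latter shared with the antisense gene Gm42738.

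Total counts ran from 15089140 to 16872925 per library, and 16592 genes were tested. Levels are given as CPM (counts scaled to a common library total, here with TMM factors that correct for library composition). Transcripts of cerebellar granule cells (Gabra6 above 5 CPM) were present in 3 libraries (KO replicates 1 and 3 with WT replicate 1), and Gabra6 was at 0 in the others, and Xist, which is transcribed in females, was above 5 CPM in WT replicate 2 and KO replicates 1 and 2. Cerebellar content and sex therefore differed between libraries, and results with and without these libraries are given below. Olig2 itself fell, from 54.4, 53.3 and 46.8 CPM in WT to 24.9, 26.1 and 31.6 CPM in KO. A gene is named as called where its adjusted p was under 0.05, by edgeR unless stated. Of all genes tested, 0.958% were called lower in KO and 0.241% higher. All 11 oligodendrocyte lineage markers were lower in KO and 10 were called. Their summed level was 7340 to 9885 CPM in WT and 1011 to 1959 CPM in KO. All 4 meningeal fibroblast markers were higher in KO and 3 were called. They summed to 68.6 to 77.0 CPM in WT and 141.1 to 210.4 CPM in KO. Of 5 neuron markers 0 were called, with a summed 4332 to 4732 CPM in WT and 4329 to 4689 CPM in KO.

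Prmt5 (chr14:54507187-54517525, minus strand), the targeted gene, stood at 90.8, 90.4 and 91.8 CPM in WT replicates 1, 2 and 3. In KO replicates 1, 2 and 3 it stood at 68.2, 68.4 and 81.6 CPM. Every KO library lay below every WT library, the WT values were nearly equal, and KO replicate 3 lay between the other KO libraries and WT. The group means, 91.0 ± 0.751 and 72.7 ± 7.66 CPM (SD, n = 3), gave a log2 fold change of -0.32 (SE 0.0950, 95% interval -0.53 to -0.11). On a linear scale the level in KO was lower by 20.1%, with an interval from 7.57% to 30.9%. Because counts span every exon, transcript that lacks only the deleted part is counted too.

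This difference had an unadjusted p of 0.00606 and did not pass the threshold over all genes, with an adjusted p of 0.232 (edgeR quasi-likelihood, adjusted by Benjamini-Hochberg). By its p the gene ranked 433rd of the 16592 tested. DESeq2 gave an adjusted p of 0.146. When same-numbered libraries were treated as pairs (the replicate block), the log2 fold change was -0.33 and the adjusted p 0.0379, past the threshold of 0.05. No label gives this pairing, which was assumed from the same data. Within the pairs Prmt5 was lower in KO by 0.41, 0.40 and 0.17 on the log2 scale, the least in pair 3.

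Read depth gave each Prmt5 value a small counting error. Between 1085 and 1526 reads were counted for Prmt5 in a library, which gives a counting error of 2.56% to 3.04%, and the SD of the WT libraries was below that error. The exact 95% Poisson interval of KO replicate 3, 77.2 to 86.2 CPM, overlapped that of WT replicate 2, 85.6 to 95.3 CPM, and just reached that of WT replicate 1, 86.2 to 95.5 CPM. Those of KO replicates 1 and 2, 64.3 to 72.3 and 64.4 to 72.6 CPM, overlapped no WT interval and not that of KO replicate 3. These intervals cover counting error only. In whole brain tissue, fewer cells of a type and less RNA per cell cannot be told apart.

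**Figure D1:**
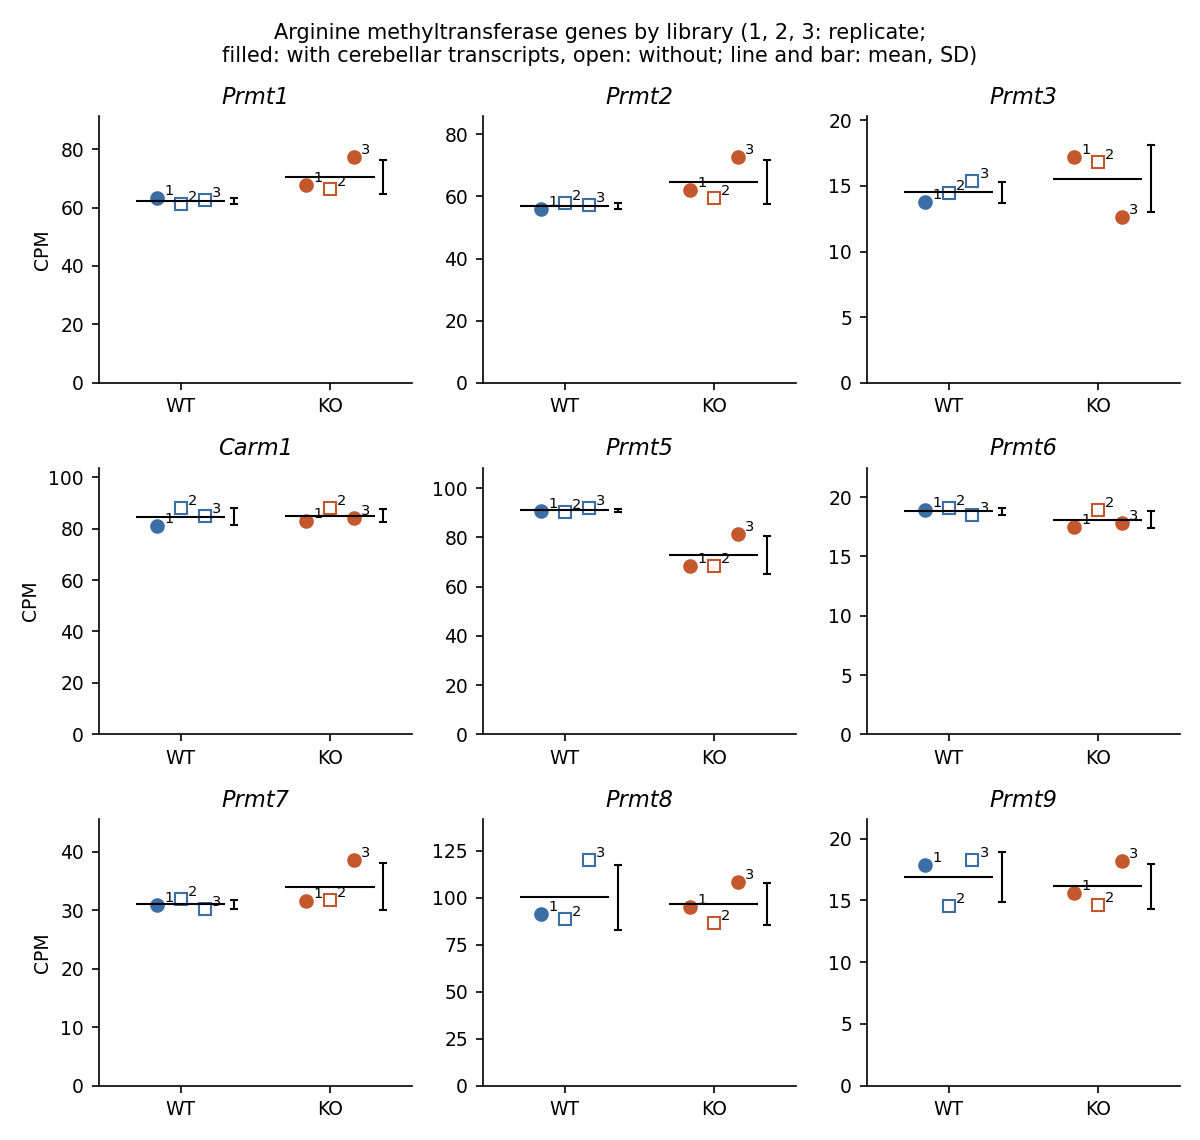
Level of each arginine methyltransferase gene in CPM (vertical axes, each from 0) in the 3 WT (blue) and 3 KO (orange) libraries, numbered by replicate, with filled circles for libraries that hold cerebellar transcripts, open squares for those that do not, lines at the group means and bars of 1 SD. Prmt5 is the gene whose KO libraries, at 68.2 to 81.6 CPM, all lie below its WT libraries, at 90.4 to 91.8 CPM.

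KO replicate 3, the library with the highest Prmt5 of its group, was the highest KO library in 2 of the 11 lineage markers, the lowest in 6 and between the others in 3. The 2 were Olig2, whose KO values are given above, and its neighbour Olig1, at 101.3, 99.9 and 104.5 CPM in KO replicates 1 to 3. Mbp, the gene of myelin basic protein and among the 6, stood at 632, 964 and 469 CPM, while Sox10, which encodes a lineage transcription factor and was among the 3, stood at 26.6, 31.7 and 29.3 CPM. The part that lineage cells, meningeal cells and dissection play in the Prmt5 values was not tested.

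Prmt5 was lower in KO under each of the 23 alternative settings, with log2 fold changes from -0.42 to -0.28, and its call depended on the setting. Among the libraries without cerebellar transcripts, KO replicate 2 against WT replicates 2 and 3, the log2 fold change was -0.42 with an adjusted p of 0.00323 by edgeR, but the KO arm then has 1 library and no spread of its own, which is assumed to be that of the others. Among those with cerebellar transcripts, KO replicates 1 and 3 against WT replicate 1, it was -0.28 with an adjusted p of 0.99996, the lone WT library being under the same assumption. A term for cerebellar transcripts together with the replicate block gave -0.41 and an adjusted p of 0.00293. Without KO replicate 3 the value was -0.41 with an adjusted p of 0.0690, and with a term for sex it was -0.28 with an adjusted p of 0.324.

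**Figure D2:**
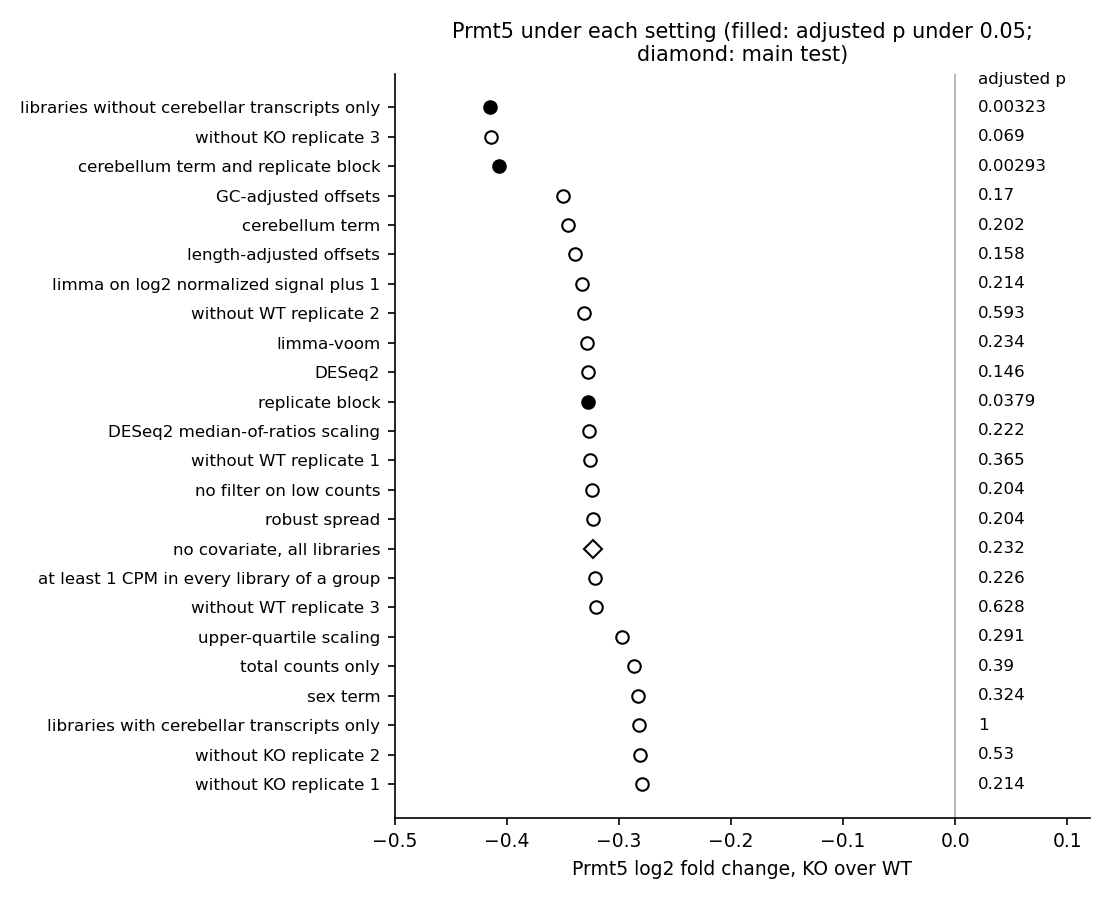
Log2 fold change of Prmt5, KO over WT (horizontal axis), under the fit of all libraries without covariates (diamond) and under 23 alternative settings (circles), with the adjusted p of each at the right and filled symbols where it was under 0.05. All values lie between -0.42 and -0.28, and the 3 filled ones are the fits with the replicate block and the fit on libraries without cerebellar transcripts.

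Prmt9 (chr8:77549397-77581338, plus strand), the other type II enzyme, which dimethylates the splicing factor encoded by Sf3b2, stood at 17.9, 14.5 and 18.3 CPM in WT and 15.6, 14.6 and 18.2 CPM in KO, for replicates 1 to 3. The groups overlapped, and replicate 2 was lowest in both. Its log2 fold change was -0.07 (SE 0.146, 95% interval -0.39 to 0.25), with an adjusted p of 0.915 by edgeR. The interval spans a level lower by 23.6% and one higher by 19.3%.

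Prmt7 (chr8:106210936-106252794, plus strand), which monomethylates histones and other proteins, stood at 30.9, 31.8 and 30.2 CPM in WT and 31.5, 31.8 and 38.6 CPM in KO. KO replicate 3 was above all other libraries, while the rest lay within the WT range. KO over WT, the log2 fold change was 0.13 (SE 0.116, 95% interval -0.12 to 0.39), and without KO replicate 3 it was 0.03. The adjusted p by edgeR was 0.756 with all libraries and 0.964 without that library.

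Of the type I enzymes, Prmt1 (chr7:44975989-44986568, minus strand) makes most of the asymmetric dimethylarginine of mammalian cells. Its level was 63.3, 61.2 and 62.5 CPM in WT and 67.7, 66.4 and 77.3 CPM in KO, for replicates 1 to 3. Every KO library lay above every WT library, by the most in KO replicate 3. For Prmt1 the log2 fold change was 0.18 (SE 0.0915, 95% interval -0.02 to 0.38) with an adjusted p of 0.567 by edgeR, and 0.11 without KO replicate 3.

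Prmt2 (chr10:76207222-76237865, minus strand), an SH3-domain member and coactivator of nuclear receptors, gave the same order. Its levels were 55.8, 57.9 and 57.2 CPM in WT and 61.9, 59.4 and 72.7 CPM in KO. Here too the groups did not overlap and KO replicate 3 was highest. For Prmt2 it was 0.18 (SE 0.0984, 95% interval -0.03 to 0.40) with an adjusted p of 0.584 by edgeR, and 0.09 without KO replicate 3. With offsets adjusted for exonic length per library, the values of Prmt1 and Prmt2 were 0.14 and 0.15, and with a term for sex they were 0.21 and 0.22.

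Prmt3 (chr7:49778346-49858265, plus strand), a cytosolic enzyme whose substrate is the ribosomal protein encoded by Rps2, stood at 13.7, 14.5 and 15.3 CPM in WT and 17.2, 16.8 and 12.6 CPM in KO. The first 2 KO libraries were above WT and KO replicate 3 below it, unlike in Prmt1, Prmt2 and Prmt7, where KO replicate 3 was highest. Its log2 fold change was 0.10 (SE 0.151, 95% interval -0.23 to 0.43) with an adjusted p of 0.867 by edgeR, and 0.23 without KO replicate 3.

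Carm1 (chr9:21546894-21592623, plus strand), a transcriptional coactivator that methylates histone H3 and the chromatin remodeller subunit encoded by Smarcc1, had the narrowest interval of the 9. It stood at 81.1, 87.9 and 85.02 CPM in WT and 82.9, 87.9 and 84.3 CPM in KO, and in each group replicate 2 was highest and replicate 1 lowest. The log2 fold change was 0.01 (SE 0.0828, 95% interval -0.18 to 0.19), which spans a level lower by 11.5% and one higher by 13.98%. Its sign changed between settings.

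Prmt6 (chr3:110246109-110250998, minus strand), a nuclear enzyme that methylates histone H3 and represses transcription, stood at 18.9, 19.1 and 18.5 CPM in WT and 17.5, 18.9 and 17.9 CPM in KO. The groups overlapped through KO replicate 2. The log2 fold change was -0.06 (SE 0.118, 95% interval -0.32 to 0.20) with an adjusted p of 0.909 by edgeR.

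Prmt8 (chr6:127689011-127769472, minus strand), found mainly in brain and held at the plasma membrane by an N-terminal lipid, stood at 91.5, 88.6 and 120.2 CPM in WT and 95.1, 86.5 and 108.4 CPM in KO. Replicate 3 was highest and replicate 2 lowest in both groups, and the ranges overlapped. The log2 fold change was -0.05 (SE 0.130, 95% interval -0.34 to 0.24) with an adjusted p of 0.932 by edgeR. Its sign depended on the libraries compared: it was 0.15 in the libraries that hold cerebellar transcripts, -0.27 in the rest, and 0.10 without WT replicate 3.

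**Figure D3:**
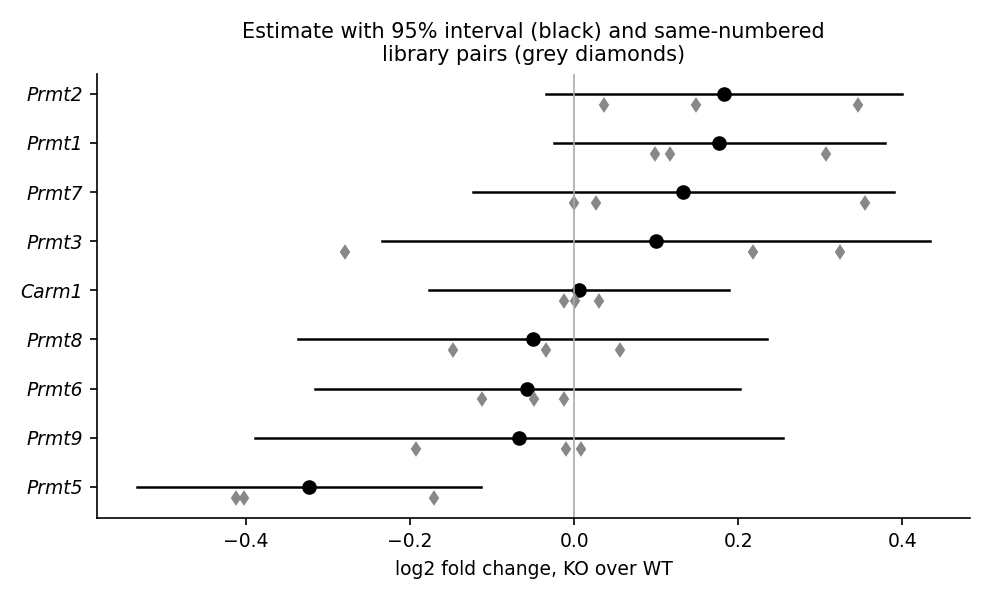
Log2 fold change of the 9 genes, KO over WT (horizontal axis), as the estimate of edgeR's fit of all libraries (black circles) with its 95% interval (lines) and as the difference within each same-numbered pair of libraries (grey diamonds). The interval of Prmt5, -0.53 to -0.11, is the one that does not reach 0.

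Counted together, 0 of the 9 genes were called by edgeR at an adjusted p under 0.05, against a background of 1.2% of all genes (0.958% called lower and 0.241% called higher). DESeq2 also called 0 of 9, against 1.89% of genes. At an unadjusted p under 0.05 there was 1 member, Prmt5, by edgeR and by DESeq2, against 9.67% of all genes by edgeR. With the replicate block 1 of 9 was called, Prmt5, where 2.38% of genes were called lower. It was also the 1 member called with the cerebellar term and the block, where 2% were called lower. Among the libraries without cerebellar transcripts, with 1 KO library, it was past the threshold as well, as were 4.11% of genes in that direction, and this adds no evidence on the spread between KO samples.

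In 1 member, Prmt5, every KO library lay below every WT library, an order that 7.99% of genes had. In 2 members, Prmt1 and Prmt2, every KO library lay above every WT library, as in 8.02% of genes. The other 6 overlapped. Log2 fold changes were positive in 5 members and negative in 4, and their median was 0.0061, beside 0.013 for all genes tested. Leaving Prmt5 aside, they ran from -0.07 to 0.18 with adjusted p from 0.567 to 0.987, and their 95% intervals reached from a level lower by 23.6% to one higher by 35.1%. Of the 9 members 0 were called for the term that separates libraries with and without cerebellar transcripts, by edgeR with genotype in the model, where 0.729% of genes were called, and 0 had an unadjusted p under 0.05 for it. DESeq2 was not run on that term.

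Levels of different genes are compared here per length, as CPM per kilobase of the union of a gene's exons in GENCODE M21. In WT, Prmt8 had the highest level of the family at 36.7 ± 6.40 CPM per kilobase (SD, n = 3), and Prmt5 came next at 23.0 ± 0.190. Prmt1 followed at 18.2 ± 0.302, Carm1 at 17.5 ± 0.695 and Prmt2 at 16.9 ± 0.311. A gap separated these 5 from the others, which were Prmt7 at 5.06 ± 0.133, Prmt6 at 4.48 ± 0.0734, Prmt9 at 2.98 ± 0.363 and Prmt3 at 2.42 ± 0.134. Neighbours in this order whose WT ranges overlapped were Prmt1 and Carm1, Carm1 and Prmt2, and Prmt9 and Prmt3. The same 5 genes were at the top under each exon model tried, while their order and the gap below them depended on the model. Over the mean length of the coding transcripts Prmt1 came first, at 67.6 CPM per kilobase, before Prmt5 at 55.1 and Prmt8 at 36.7. There the gap was narrower, with Prmt2 at 27.7, Prmt7 at 18.1 and Prmt6 at 6.84.

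**Figure D4:**
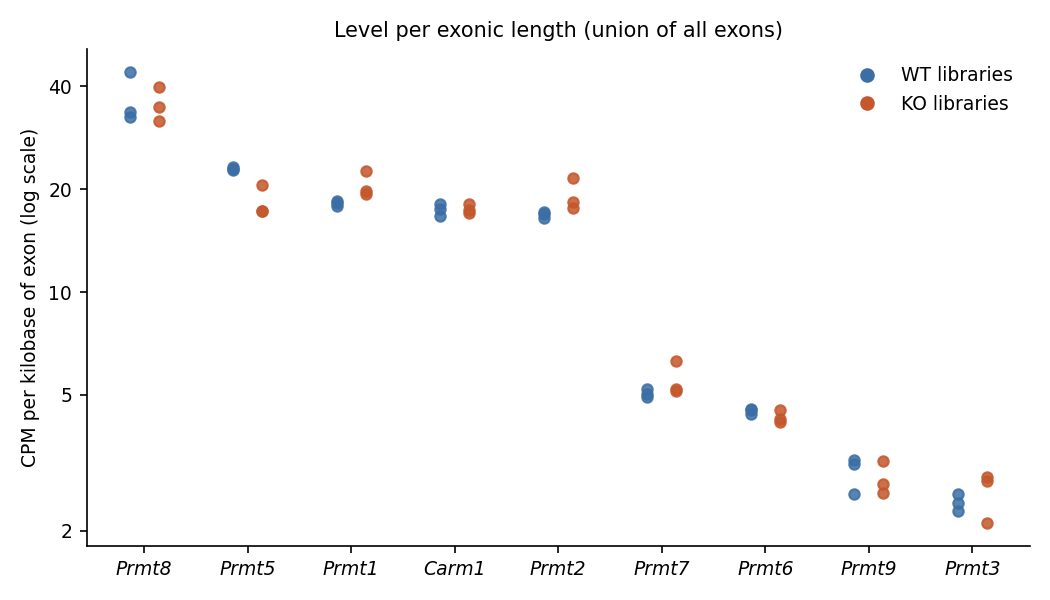
Level per length of each gene in CPM per kilobase of exon (vertical axis, log scale), with 1 point for each WT (blue) and KO (orange) library, ordered by the WT mean. Prmt8 is highest at a WT mean of 36.7, and the lower 4 genes lie at WT means of 2.42 to 5.06.

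In KO, Prmt5 was in place 4 of this order, at 18.4 ± 1.94 CPM per kilobase, after Prmt8 at 35.5 ± 4.06, Prmt1 at 20.6 ± 1.74 and Prmt2 at 19.1 ± 2.08. The KO ranges of Prmt5, Prmt1 and Prmt2 overlapped, so the order among them was not resolved. Carm1, at 17.1 to 18.1 in KO, also overlapped Prmt5, at 17.2 to 20.6. The place of Prmt5 depended on the exon model too. Over the mean length of the coding transcripts it was in place 2 in both groups, at 55.1 in WT and 44.1 in KO. Of the summed level of the 9 genes per kilobase, Prmt5 made up 18.6%, 18.5% and 17.2% in WT replicates 1 to 3 and 14.1%, 14.5% and 14.96% in KO replicates 1 to 3. The groups did not overlap in this share, which does not depend on library scaling but does depend on the levels of the other members. KO replicate 3 lay closer to the other KO libraries than it did in CPM, and its summed level was the highest in KO. That sum was 122.3, 119.2 and 137.7 CPM per kilobase in KO replicates 1 to 3.

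The ratio of Prmt5 to the gene of its obligate partner, Wdr77, is also free of library scaling. Prmt5 counts were 1.71, 1.66 and 1.549 times those of Wdr77 in WT replicates 1 to 3 and 1.39, 1.17 and 1.40 times in KO replicates 1 to 3. All WT ratios lay above all KO ratios, but the ratio reuses the Prmt5 counts given above and is not separate evidence. The mean log2 ratio was lower in KO by 0.31, with p = 0.1 in a two-sided exact permutation test over the 6 libraries, the smallest p that 3 against 3 allows. It stayed between -0.36 and -0.23 as each library was left out in turn.

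The genes whose levels were most like those of Prmt5 were taken as those with the smallest root mean square difference of centred log2 CPM over the 6 libraries, among 1670 genes that averaged 20 CPM or more and spread at least as much. They were Phlda1, a pleckstrin-homology protein gene, at 0.0165, Taldo1, the transaldolase of the pentose phosphate pathway, at 0.0476, and Dnajb12, a chaperone gene of the endoplasmic reticulum, at 0.0756. Phlda1 stood at 27.1, 27.6 and 28.0 CPM in WT and 20.3, 20.8 and 24.3 CPM in KO, an order that the choice by likeness fixes. These are likenesses over 6 libraries, and none of the 3 was called by edgeR (adjusted p of 0.349, 0.0958 and 0.354).

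Other genes of arginine methylation were read from 7 lists with 63 genes, of which 58 were tested and 2 were called, both lower in KO. Over all genes tested, 1.2% were called in either direction and 0.958% were called lower. As background for the orders given below, 7.99% of all genes had every KO library below every WT library. In 8.02% every KO library lay above. Of 8 listed partners of the enzymes, among them Rps2, whose protein is the substrate of Prmt3, 0 were called, and the median log2 fold change was 0.12. Wdr77, whose protein completes the PRMT5 complex, averaged 55.6 ± 3.24 CPM in WT against 55.2 ± 5.20 in KO (SD, n = 3), and its log2 fold change was -0.01 (SE 0.1004), whose sign changed with the scaling. Clns1a, which brings Sm proteins to PRMT5, was at 0.10 (SE 0.0953), and Riok1, an adaptor that competes with it, at 0.22 (SE 0.124). Riok1 stood at 15.3, 14.6 and 13.96 CPM in WT and 17.4, 16.2 and 17.6 CPM in KO, with no overlap and an adjusted p of 0.601 by edgeR. Coprs, which directs PRMT5 to histones, was at 0.37 (SE 0.177) and Btg1, a binding partner of PRMT1, at 0.32 (SE 0.158), both with overlapping groups. Reads of Wdr77 may be shared with Gm42890, which overlaps 28.7% of its exonic bases on the same strand, and with Atp5f1, which overlaps 6.96% on the opposite strand, and this bears on the ratio of Prmt5 to Wdr77 too. Reads of Clns1a may be shared with Rsf1os2 (3.14% of its exonic bases) and those of Riok1 with Cage1 (0.79%), both on the opposite strand. Rps2 shares 7.32% with Snora64 on the same strand. Genes named below also overlap neighbours on the opposite strand. These are Mat2a (11.3%, Particl), Snrpd3 (6.74%, Gucd1), Padi2 (2.97%, Gm13031), Sf3b2 (2.84%, AC125059.3) and Smarcc1 (1.57%, Dhx30).

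Of 9 tested genes that supply and recycle the methyl donor, 0 were called, 2 had an unadjusted p under 0.05, and the median was -0.07. Mat2a, the S-adenosylmethionine synthetase gene outside the liver, averaged 170.6 ± 2.87 CPM in WT against 165.6 ± 7.97 in KO, with a log2 fold change of -0.04 (SE 0.0842). Mtrr, which keeps methionine synthase active, stood at 9.37, 10.2 and 10.7 CPM in WT and 7.78, 7.69 and 8.13 CPM in KO. Its groups did not overlap, and its log2 fold change was -0.36 (SE 0.153, adjusted p of 0.473 by edgeR). Mtap, which clears methylthioadenosine, an inhibitor of PRMT5, was at -0.45 (SE 0.200, adjusted p of 0.506 by edgeR), with WT and KO overlapping. Mat1a, the liver form, had at most 0.125 CPM and was not tested.

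Readers of methylarginine carry Tudor domains. Of 6 tested, 0 were called and the median was 0.07. Smn1, the mouse survival motor neuron gene, whose protein binds symmetrically dimethylated Sm proteins, stood at 17.1, 18.5 and 16.8 CPM in WT and 21.7, 21.3 and 20.96 CPM in KO. The groups did not overlap, and the log2 fold change was 0.29 (SE 0.118) with an unadjusted p of 0.0329 and an adjusted p of 0.449 by edgeR. Smndc1, its splicing-factor relative, was at 0.22 (SE 0.103), also with no overlap and an adjusted p of 0.527.

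Of 4 tested genes of methylarginine turnover and citrullination, 1 was called lower and 0 higher. Log2 fold changes were negative in 2 and positive in 2. Padi2, the peptidylarginine deiminase of oligodendrocytes, which turns arginine into citrulline in myelin basic protein and histones, stood at 31.5, 25.9 and 29.8 CPM in WT and 16.1, 18.1 and 15.1 CPM in KO. The groups were far apart, with means of 29.1 ± 2.90 and 16.4 ± 1.54 CPM (SD, n = 3), and the log2 fold change was -0.82 (SE 0.131) with an adjusted p of 0.0107 by edgeR. The call was lost without WT replicate 1 (adjusted p of 0.0574) and without WT replicate 3 (0.0622). Padi1, Padi3 and Padi4, relatives of Padi2, and Agxt2, which breaks down free dimethylarginine, had at most 0.381 CPM in any library and were not tested. Markers of the oligodendrocyte lineage fell in the same libraries, and their part in the Padi2 value was not tested.

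The arginine methyltransferases outside the family, Mettl23 and Ndufaf7, were at 0.17 (SE 0.0970) and 0.12 (SE 0.158), and 0 of 2 were called. Reads of Mettl23 may be shared with Srsf2, Jmjd6 and Mfsd11, which overlap its exons.

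Of 11 genes whose proteins carry symmetric dimethylarginine, 1 was called lower and 0 higher. Log2 fold changes were negative in 4 and positive in 7, with a median of 0.16. The called gene, Mbp, stood at 5632, 4075 and 4095 CPM in WT and 632, 964 and 469 CPM in KO. Its log2 fold change was -2.74 (SE 0.241), with an adjusted p of 0.000201 by edgeR. Mbp is a myelin gene and one of the lineage markers counted above. The Sm protein genes Snrpb, Snrpd1 and Snrpd3 were at 0.23, 0.26 and 0.18, with adjusted p of 0.611, 0.570 and 0.560, and Sf3b2, the substrate of PRMT9, at 0.13 with an adjusted p of 0.713. Of 18 genes of type I substrates, mostly RNA-binding proteins and coactivators, 0 were called and the median was 0.05. Hnrnpa1, an RNA-binding protein methylated by PRMT1, was at 0.21 (SE 0.112) and Smarcc1 at -0.14 (SE 0.0934), both with overlapping groups.

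**Figure D5:**
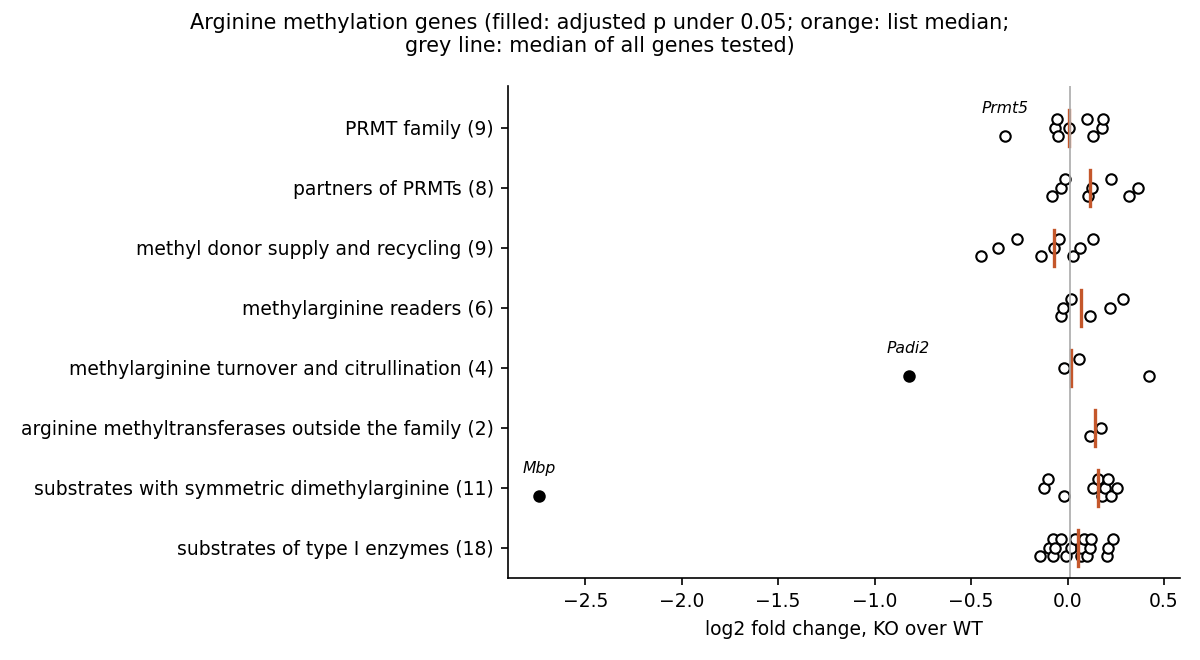
Log2 fold change, KO over WT (horizontal axis), of each tested gene of the methyltransferase family and of 7 lists of arginine methylation genes (rows, number tested in brackets), with filled points for an adjusted p under 0.05, orange marks at list medians and a grey line at the median of all genes tested. Padi2 at -0.82 and Mbp at -2.74 are the filled points.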

How the data were processed

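Per the submitters' processing notes, the authors' tools were STAR 2.3.0e, featureCounts 1.5.0, Trimmomatic 0.32, FastQC 0.11.2 and DESeq2, on mm10. The authors deposited raw read counts (whole numbers) and normalized signal. Each signal value was the count over a factor of its library, with a tolerance of 1.02e-14. The handling of reads that map to several places is not given in the sources used here.

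Of the 31276 symbols, 9145 had no count in any library, and filterByExpr left 16592. KO and WT counts were compared with edgeR 4.0.16 in R 4.3.3 (TMM scaling, glmQLFit and glmQLFTest, no covariate, 4 residual degrees of freedom, a common biological coefficient of variation of 0.150), and p-values were adjusted by Benjamini-Hochberg over all genes tested, with a threshold of 0.05. The SE is the log2 fold change divided by the square root of F. CPM and CPM per kilobase were computed here. The edgeR fit without covariates was tested on simulated data. Those counts held no cerebellar, sex or pair structure, so the simulation cannot show how the fit behaves on these libraries. Exon models, overlaps and sequences came from GENCODE M21, in which 23496 symbols were found.

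Alternatives were other scalings and filters, DESeq2 1.42.0, limma 3.58.1 (voom, or log2 of the deposited signal plus 1), a robust spread, terms for cerebellar transcripts and sex, split libraries, loess offsets for length and GC with a span of 0.5, each library left out, and the replicate block. Deviations from group means correlated at 0.351, 0.334 and 0.177 between same-numbered libraries, all above 0.1, and on this ground the numbers were taken as pairs. No label explains the numbers, and correlations between differently numbered libraries are not given here. WT replicate 1 and KO replicate 1 also share cerebellar transcripts. The pairing is thus an assumption, taken from the same data that the replicate block was then fitted to. Chi-square per degree of freedom between libraries of a group was 6.75 to 27.41, far above counting noise, so all were kept as separate samples. The highest values were those of KO replicate 3 against KO replicate 1 (26.23) and KO replicate 2 (27.41). KO replicates 1 and 2 gave 15.63.

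The members and lists were chosen with earlier results of these data known. Named from each list are the called genes, up to 4, or else the 2 with the smallest p, the 3 genes most like Prmt5, and by name Wdr77, Clns1a, Riok1, Coprs, Mat2a and Mbp. The Sm protein genes, Sf3b2, Mat1a and the untested Padi genes and Agxt2 were named after their values were seen.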

Additional observations from a re-analysis of the deposited data

How the results depend on the processing

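Prmt5 was lower in KO under all 23 alternatives, and passed the threshold under 3 of them. These were the replicate block (-0.33, adjusted p 0.0379), the term for cerebellar transcripts with the replicate block (-0.41, adjusted p 0.00293) and the libraries without cerebellar transcripts (-0.42, adjusted p 0.00323, with a single KO library), and under each the number of members called was 1 in place of 0. The cause was not tested. The replicate block changed no other call among the members and named genes. Of the members with small differences, Carm1 reversed with the sex term (-0.010) and GC offsets (-0.044), and ran from -0.024 to 0.030 as each library was left out. Prmt8 reversed with the cerebellar term and replicate block (0.011), the sex term (0.035) and the libraries with cerebellar transcripts (0.15), and ran from -0.14 to 0.10 with a library left out. Prmt9 reversed with the sex term (0.032) and Prmt6 in the libraries without cerebellar transcripts (0.0096). Wdr77 reversed with upper-quartile scaling (0.016), total counts (0.024), the cerebellar term (0.025), the sex term (0.015), GC offsets (0.0048) and the libraries with (0.0099) and without (0.033) cerebellar transcripts, and ran from -0.052 to 0.065 with a library left out. Btg1 (-0.050) and Hnrnpa1 (-0.014) reversed in the libraries with cerebellar transcripts, and in those without them both were called (0.57 and 0.48). Mat2a reversed in the latter (0.0035), and Ndufaf7 ran from -0.049 to 0.26 with a library left out. None of these reversed values passed the threshold. The number of all genes called, 199, was 315 with DESeq2, 566 with the replicate block, 535 with the cerebellar term and block, 129 with the sex term, 1254 in the libraries without cerebellar transcripts, and 100 to 305 with a library left out. The level per kilobase of each member except Prmt8 moved by more than its WT SD with the exon model. With 3 libraries a group, the 95% intervals of the members other than Prmt5 reached differences of up to 35.1%.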
